A study of Mus musculus with 6 samples.

Results

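Integrins are cell surface receptors, each made of an alpha and a beta chain, that hold cells to the matrix around them. Laminins are the three-chain proteins (alpha, beta, gamma) that form the sheet of the basement membrane under an epithelium. Nidogens, agrin and dystroglycan tie that sheet to its neighbours and to the cell, and in basal epithelial cells the alpha6 beta4 integrin anchors keratin filaments to it at hemidesmosomes. A salivary gland holds all of these around its acini and ducts, where myoepithelial and basal cells sit on the basement membrane.

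The genes described here are the laminin chains and the integrin chains whose symbols carry a number, except Itgb3. With them go 7 linkers (Nid1, Nid2, Dst, Plec, Cd151, Agrn and Dag1). All were picked by symbol, though with earlier results of these data known. They come to 38 of the 24054 genes in the table of counts, and all 38 were among the 14044 genes with enough counts to test. Lama1 and Itga2, with under 10 counts in every control, passed that filter only through the K5-RANKL libraries, where they are high. Itgb2l reached the filter's level in 2 K5-RANKL libraries and passed with the controls, where it is high.

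RNA came from mouse salivary gland. Each of the 3 control and 3 K5-RANKL libraries pooled 5 mice, so that p-values describe the spread between pools. K5-RANKL mice carried K5-rtTA and TetO-RANKL, in which the keratin 5 promoter makes a doxycycline-dependent activator that turns on RANKL, a cytokine of the TNF family, in keratin 5 expressing epithelium. Controls were monogenic; the sources used here do not say which transgene they carried, or give the strain, the sex or the glands taken. From 9 weeks of age all mice, controls included, had doxycycline in their food and water for 2 weeks.

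Total counts ran from 13875951 to 17921815 per library, so that 3 counts stand for 0.125 to 0.295 CPM. CPM here means a gene's counts per 1000000 of its library size, scaled by the trimmed mean of M values (TMM). The 20 most abundant genes took 64.9 to 67.3% of the counts of a control library and 32.0 to 39.1% in K5-RANKL glands. Scaled by library totals, the middle gene of all tested stood 1.01 higher in K5-RANKL glands on the log2 scale, where TMM put it at 0.01. All 10 salivary gland markers were present and fell, from a summed 85721 to 104971 CPM in controls to 12722 to 16433 CPM in K5-RANKL libraries. Control 1 stood apart from the other controls, by a chi-square of 37.0 and 38.3 per gene against 6.26 between control 2 and control 3. In control 1, 33 of the 38 adhesion genes were below the mean of the other controls, at a median of −0.21 log2, and in K5-RANKL 2, 27 were below the mean of the other K5-RANKL libraries, at −0.11. In bulk tissue, fewer cells of a type and less RNA per cell cannot be told apart.

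Most of the adhesion genes were higher in K5-RANKL glands. Of the 38, 25 rose, 6 fell and 7 did not pass (edgeR quasi-likelihood test, adjusted p under 0.05), so 81.6% were called where 66.2% of all genes tested were. The share that rose was 65.8%, against 34.2% of all genes, and the share that fell 15.8%, against 32.1%. Their median log2 fold change was 0.61, against 0.01 for all genes. At least 2-fold rises were seen in 10 members, 26.3%, against 16.9% of all genes. Among these 10, and so among the 25 that rose, are Lama1 and Itga2, which passed the low-count filter only through the K5-RANKL libraries. The groups did not overlap for 31 members, 81.6%, against 70.4% of all genes. Without control 1, 23 rose and 5 fell, and without K5-RANKL 2, 26 rose and 6 fell. By library totals 34 members (89.5%) rose and 2 fell, where 83.5% of all genes rose, with medians of 1.60 and 1.01.

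**Figure D1:**
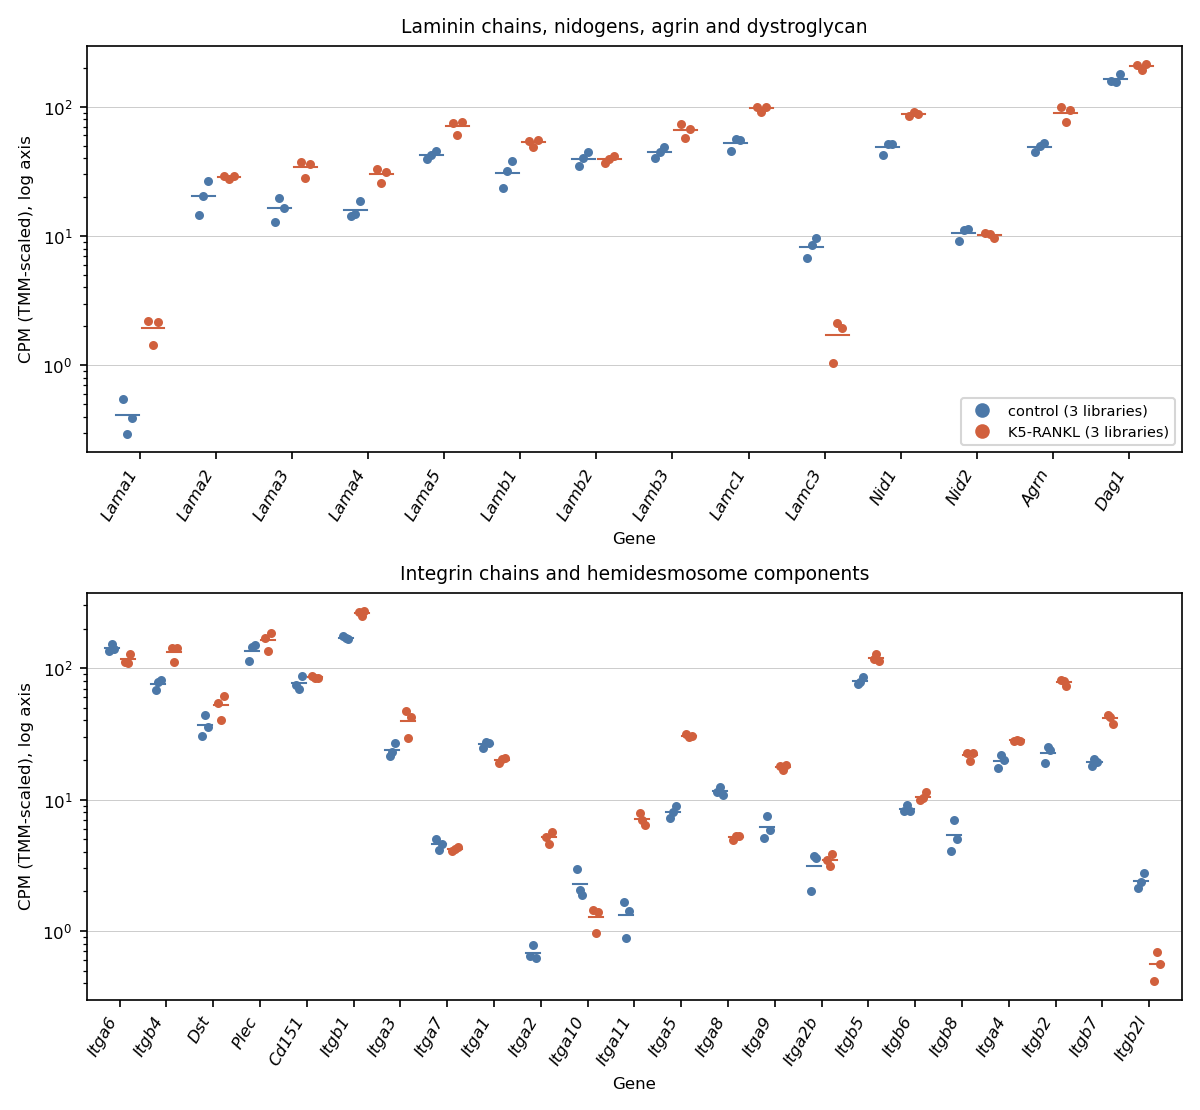
Level of the laminin, linker and integrin genes in CPM (TMM scale, log axis), with 1 point per library for both groups and a bar at each group mean. Lamc3 and Itgb2l sit lower in every K5-RANKL library, and Itga2, Itga11 and Itgb8 higher in every one.

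Measured per kilobase of transcript, which allows levels of different genes to be set side by side, the most abundant members in controls were Itgb1, the beta chain shared by most integrins, at 44.7 ± 1.13 CPM per kilobase, and Cd151, a tetraspanin that binds laminin-binding integrins, at 41.3 ± 4.68 (SD, n = 3). These neighbours in the order differed by less than the spread of Cd151. Itga6 at 33.0 ± 2.17, Dag1 at 28.9 ± 2.17 and Itgb5 at 24.4 ± 1.63 came next. In K5-RANKL glands Itgb1 stood at 69.1 ± 2.82, Cd151 at 45.7 ± 1.06, Itgb5 at 36.5 ± 2.28 and Dag1 at 36.2 ± 2.05, and Itga6 at 27.1 ± 2.51. The lowest in controls was Lama1, at 0.0433 ± 0.0137.

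Of the 11 laminin chains 9 rose (81.8%), 1 fell and 1 did not pass, where 34.2% of all genes rose and 32.1% fell. The 9 include Lama1, which passed the low-count filter only through the K5-RANKL libraries. Lama3, encoding the alpha3 chain of the laminin that hemidesmosomes grip, was at 12.9, 19.5 and 16.6 CPM in controls and 37.0, 28.2 and 36.3 CPM in K5-RANKL libraries. It rose 2.08-fold (log2 1.06, SE 0.14, edgeR adjusted p = 3.97e-05). Lamb3, the partner chain beta3, was at 40.2, 44.5 and 48.6 against 73.0, 57.7 and 67.2 CPM, a rise of 1.49-fold (edgeR adjusted p = 5.5e-05). The K5-RANKL 2 library held the lowest K5-RANKL value of both of these chains, still above every control.

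The chains of the more widespread laminins rose by less than 2-fold. Lamc1, the gamma1 chain of most laminins, went from 52.2 ± 5.91 to 97.2 ± 4.78 CPM (SD, n = 3 each), a log2 change of 0.90 (SE 0.09). Lamb1 rose by 0.77 (SE 0.14), Lama4, a chain of vessel and mesenchymal laminins, by 0.91 (SE 0.12), and Lama5, the main alpha chain of adult epithelial basement membranes, by 0.74 (SE 0.09). Lama2, known from muscle and nerve, stood at 14.5, 20.4 and 26.4 CPM in controls and between 27.7 and 29.3 CPM in K5-RANKL libraries. Its log2 change of 0.48 (edgeR adjusted p = 0.0355) was 0.28 without control 1 and 0.72 without control 3. The call was lost without control 2, K5-RANKL 1, K5-RANKL 2 or K5-RANKL 3 (edgeR adjusted p = 0.101, 0.113, 0.0874 and 0.088) and with no low-count filter (0.0737), and the alternatives gave it adjusted p-values from 4.4e-05 to 0.113. Endothelial markers gave a summed 137 to 151 CPM in controls and 153 to 159 CPM in K5-RANKL libraries, with 2 of 8 higher and 2 lower and none at 0 in all libraries. Schwann cell markers gave 50.6 to 58.4 and 93.9 to 101 CPM, 2 of 5 tested higher and 1 lower. Their part in the laminin results was not tested.

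A few laminin chains went otherwise. Lamc3, encoding gamma3 (chromosome 2 from 31887281 to 31949083), was at 6.73, 8.44 and 9.70 CPM in controls and 1.04, 2.14 and 1.96 CPM in K5-RANKL libraries. It fell 4.94-fold (log2 −2.30, SE 0.23, edgeR adjusted p = 2.26e-07), and by library totals it fell too (−1.31). Lamc3 was thus lower in all 3 K5-RANKL libraries than in any control, while Lamc1 was higher. Lamb2, the beta2 chain, was at 34.8, 39.8 and 44.5 CPM in controls and 36.4, 39.3 and 41.5 CPM in K5-RANKL libraries, with overlapping groups and a log2 change of −0.03 (SE 0.09, edgeR adjusted p = 0.813). Relative to library totals Lamb2 was higher (0.97). Lama1, the chain of early embryonic basement membranes, had 3 to 6 counts in each control and 27 to 53 in each K5-RANKL library. It rose 4.64-fold (SE 0.36 on the log2 scale, edgeR adjusted p = 3.36e-05) from 0.413 ± 0.131 CPM, but passed the low-count filter only through the K5-RANKL libraries.

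Shares within a chain family do not depend on the scaling between libraries, and were taken from reads per kilobase. Among the beta chains Lamb2 went from 32.8% ± 0.591 to 23.5% ± 2.36 and Lamb1 from 24.6% ± 2.52 to 30.9% ± 0.307 (SD, n = 3 each), in each case without overlap. The share of Lamb3 was 42.6% ± 1.94 and 45.6% ± 2.65, with overlapping groups (exact permutation p = 0.2, two-sided). Of the alpha chains, Lama5 took 37.0% ± 2.69 and 35.2% ± 0.71 (exact permutation p = 0.4), and Lama3 15.4% ± 2.45 and 18.2% ± 0.658 (exact permutation p = 0.2). The share of Lama2 was 20.8% ± 3.29 and 17.1% ± 1.47, with overlap (exact permutation p = 0.2). Lama4 went from 26.3% ± 1.80 to 28.3% ± 0.715 and Lama1 from 0.446% ± 0.20 to 1.14% ± 0.134, both without overlap. For Lama4 the highest control was at 27.6% and the lowest K5-RANKL library at 27.9%. Lama1 had 6, 3 and 5 counts in controls and passed the low-count filter only through the K5-RANKL libraries. Shares without overlap reach p = 0.1, the smallest that 3 libraries against 3 allow in this exact permutation test, so none of the 23 shares computed could pass 0.05, and adjusted over the 23 it is 0.144.

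**Figure D2:**
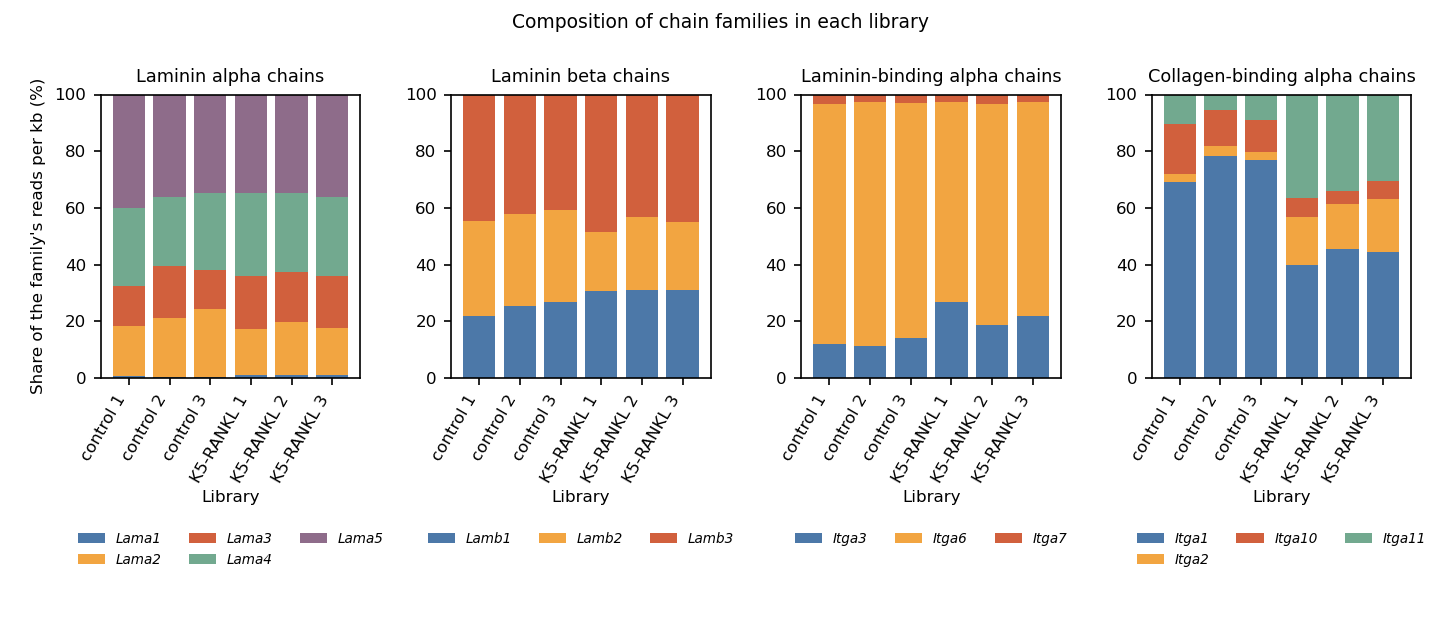
Share (percent, y axis) of each chain in the reads per kilobase of its family, stacked to 100, for each of 3 control and 3 K5-RANKL libraries. Lamb2 shrinks from 32.8 to 23.5% of the laminin beta chains, and Itga11 grows from 8.20 to 33.7% of the collagen-binding alpha chains. Itga11 had 18, 9 and 18 counts in the controls.

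Of the 4 genes that link laminin to other matrix or to the cell, 3 rose, where 34.2% of all genes did. Nid1, the main nidogen, which bridges laminin to collagen IV, was at 41.9, 51.3 and 51.9 CPM in controls and 84.0, 90.2 and 88.3 CPM in K5-RANKL libraries (log2 0.85, SE 0.08, edgeR adjusted p = 1.1e-07). Nid2, its homologue, was at 9.13, 11.1 and 11.4 against 10.5, 10.3 and 9.69 CPM, and stood at −0.06 (SE 0.12, edgeR adjusted p = 0.691), or 0.94 by library totals. Nid1 was thus higher in every K5-RANKL library, and the groups of Nid2 overlapped. Agrn, encoding the proteoglycan agrin that joins laminin to dystroglycan, was at 45.0, 49.6 and 52.8 against 99, 76.7 and 94.7 CPM and rose by 0.88 (SE 0.10, edgeR adjusted p = 7.24e-07). Dag1, encoding the dystroglycan that receives laminin and agrin at the cell surface, rose 1.25-fold, from 164 ± 12.3 to 205 ± 11.6 CPM (edgeR adjusted p = 0.00137).

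The partners of dystroglycan inside the membrane and the enzymes that build its laminin-binding sugar went the other way. Among 17 tested, 11 were called lower, 1 higher and 5 neither, and the median log2 change was −0.60. Of all genes 32.1% were called lower. Dtnb, encoding beta-dystrobrevin, fell by 1.46 on the log2 scale (SE 0.08), from 74.2 ± 4.93 to 26.9 ± 0.964 CPM. Pomgnt1, a glycosyltransferase of dystroglycan, went from 116 ± 12.4 down to 50.4 ± 1.83 CPM (log2 −1.21, SE 0.08). Both were also lower by library totals (−0.47 and −0.21). The syntrophin gene Sntb2 rose by 0.38 (SE 0.11). By library totals this list turned, with 11 higher and 2 lower and a median of 0.39, under the 1.01 of all genes.

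The 5 hemidesmosome genes among the members did not move together, and 2 of the 5 were called (40%), against 66.2% of all genes. These 5 leave out Col17a1, listed here with other basement membrane components, which rose by 1.30 (SE 0.26, edgeR adjusted p = 0.00625). Itgb4, the beta4 chain that carries the long tail reaching keratin linkers, was at 67.7, 78.5 and 80.9 CPM in controls and 141, 111 and 143 CPM in K5-RANKL libraries, a rise of 1.74-fold (log2 0.80, SE 0.10, edgeR adjusted p = 6.67e-06). Itga6, its alpha partner, was at 135, 153 and 140 against 111, 110 and 129 CPM, and fell 1.22-fold (log2 −0.29, SE 0.08, edgeR adjusted p = 0.00503), but was 0.71 higher by library totals. So on the TMM scale every K5-RANKL library held more Itgb4 than any control and less Itga6. The plakin genes Dst and Plec, which encode the linkers from beta4 to keratin in epithelia and have other isoforms that these counts do not tell apart, stood at 0.51 (SE 0.19, edgeR adjusted p = 0.0517) and 0.26 (SE 0.13, edgeR adjusted p = 0.0935), and Cd151 at 0.14 (SE 0.08, edgeR adjusted p = 0.132). All of them overlapped between groups. By library totals all 5 rose, where 83.5% of all genes tested did. Dst passed without control 2 or K5-RANKL 2 (edgeR adjusted p = 0.0129 and 0.000321), with DESeq2 (0.00164), with TMM factors computed without the 20 most abundant genes (0.0483) and with a filter of 50 counts in 3 libraries (0.045). Plec passed without K5-RANKL 2 (edgeR adjusted p = 0.00341) and Cd151 without control 3 (0.0196).

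Beside these members stood the basal epithelial markers Krt5, Krt14, Krt17 and Trp63, all 4 of which rose. Their sum was 97.1 to 102 CPM in controls and 962, 435 and 877 CPM in K5-RANKL libraries 1, 2 and 3, and none was at 0. In K5-RANKL 2 all 5 hemidesmosome genes were below the mean of the other K5-RANKL libraries, at a median of −0.36 log2, as were 9 of the 11 laminin chains, at −0.28. In control 1 all 5 hemidesmosome genes and 10 of the 11 laminin chains were below the mean of the other controls, at −0.23 and −0.27. The marker sum, most of it from the keratins, went up by more than these members, though the log2 change of Trp63 alone was 1.04 and that of Lama3 1.06. Lamb3 came to 45.1% ± 5.20 of the marker sum in controls and 9.51% ± 3.26 in K5-RANKL libraries, Itgb4 to 76.8% ± 8.90 and 18.8% ± 5.80, and Itga6 to 144% ± 12.5 and 17.2% ± 7.20 (SD, n = 3 each). None of these overlapped (exact permutation p = 0.1 each, adjusted p = 0.1 over 9 such ratios). The part of the basal markers in the changes of these members was not tested.

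**Figure D3:**
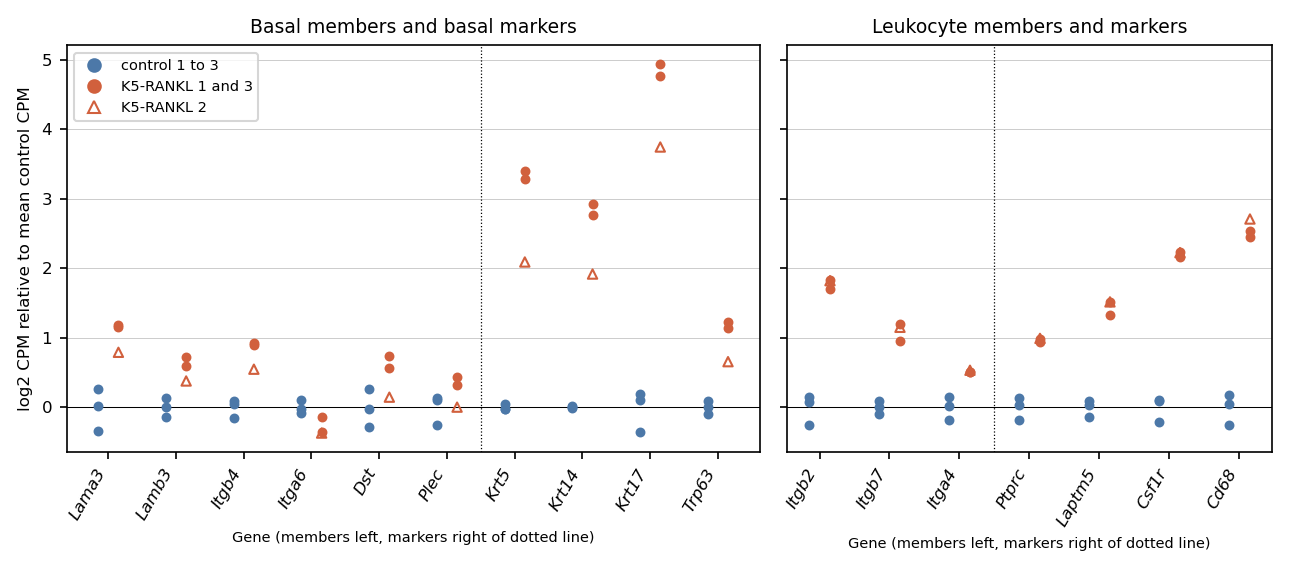
log2 CPM relative to the mean control CPM (y axis) for members and for marker genes of basal epithelium (left) and leukocytes (right); points are libraries, and open triangles are K5-RANKL 2. K5-RANKL 2 lies below the other K5-RANKL libraries for the basal keratins, Lamb3 and Itgb4, and among them for Itgb2.

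Itgb1, the beta chain that pairs with most of the alpha chains here, was at 175, 170 and 166 CPM in controls and 269, 251 and 271 CPM in K5-RANKL libraries. It rose 1.55-fold (log2 0.63, SE 0.07, edgeR adjusted p = 4.96e-07). Its share of the sum with Itgb4, the other beta partner of alpha6, was 78.5% ± 1.98 in controls and 76.6% ± 1.84 in K5-RANKL glands, with overlap (exact permutation p = 0.3). Itga3, the alpha3 chain that also binds laminin, was at 21.4, 22.9 and 27.1 against 47.4, 29.4 and 42.4 CPM and rose by 0.74 (SE 0.19, edgeR adjusted p = 0.0101). Without control 1 the call of Itga3 was lost (edgeR adjusted p = 0.0578), and the alternatives gave it adjusted p-values from 1.74e-07 to 0.0578. Among the laminin-binding alpha chains per kilobase, Itga3 took 12.5% ± 1.5 in controls and 22.4% ± 4.11 in K5-RANKL glands, and Itga6 84.5% ± 1.64 and 74.7% ± 3.92, with no overlap for either. Itga7, the laminin receptor of muscle, stood at −0.12 (SE 0.16, edgeR adjusted p = 0.527), with 4.12 to 4.98 CPM in controls and 4.07 to 4.38 CPM in K5-RANKL libraries. Skeletal muscle markers ran from a summed 17.1 CPM in control 2 to 98.2 CPM in control 3 and from 127 to 193 CPM in K5-RANKL libraries, with 1 of 6 tested called higher.

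The collagen-binding alpha chains went in both directions. Itga2 (chromosome 13 from 114833081 to 114932100), the collagen receptor chain of epithelia and platelets, was at 0.645, 0.785 and 0.626 CPM in controls, 7 to 8 counts each, and 5.19, 4.60 and 5.68 CPM in K5-RANKL libraries. Its rise of 7.52-fold was the highest of the 38 members (log2 2.91, SE 0.25, edgeR adjusted p = 1.41e-08). Itga2 passed the low-count filter only through the K5-RANKL libraries, so its test is no independent support. Itga1, on the same chromosome from 114958079 to 115101964, was at 24.7, 27.6 and 27.1 CPM in controls and 18.9, 20.4 and 20.8 CPM in K5-RANKL libraries. It fell 1.32-fold (log2 −0.40, SE 0.09, edgeR adjusted p = 0.000622), but by library totals was 0.59 higher. Itga11, a collagen receptor chain of fibroblasts, was at 1.66, 0.884 and 1.41 against 7.84, 6.96 and 6.43 CPM and rose 5.31-fold (log2 2.41, SE 0.21, edgeR adjusted p = 2.71e-08). Itga10, known from cartilage, was at 2.30 ± 0.573 and 1.27 ± 0.268 CPM. Its log2 change of −0.83 (edgeR adjusted p = 0.0119) was −0.61 without control 1, with the call lost (0.0876), and 0.18 by library totals, and its adjusted p-values across settings lay between 0.0102 and 0.551.

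In shares of this group, Itga1 went from 69.1, 78.3 and 76.8% in controls to 39.9, 45.4 and 44.4% in K5-RANKL libraries. Itga2 went from 2.99% ± 0.392 to 17.1% ± 1.5 and Itga11 from 8.20% ± 2.41 to 33.7% ± 3.12 (SD, n = 3 each). In controls these shares rest on 7, 8 and 8 counts of Itga2 and 18, 9 and 18 of Itga11. Itga2 also passed the low-count filter only through the K5-RANKL libraries. Itga1 remained the leading chain in all 6 libraries. Fibroblast markers, of which 5 of 6 were higher and none was at 0, gave a summed 380 to 467 CPM in controls and 885 to 932 CPM in K5-RANKL libraries, with Col1a1 at 2.86 and Dcn at −0.12 (not called). Their part in the change of Itga11 was not tested.

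**Figure D4:**
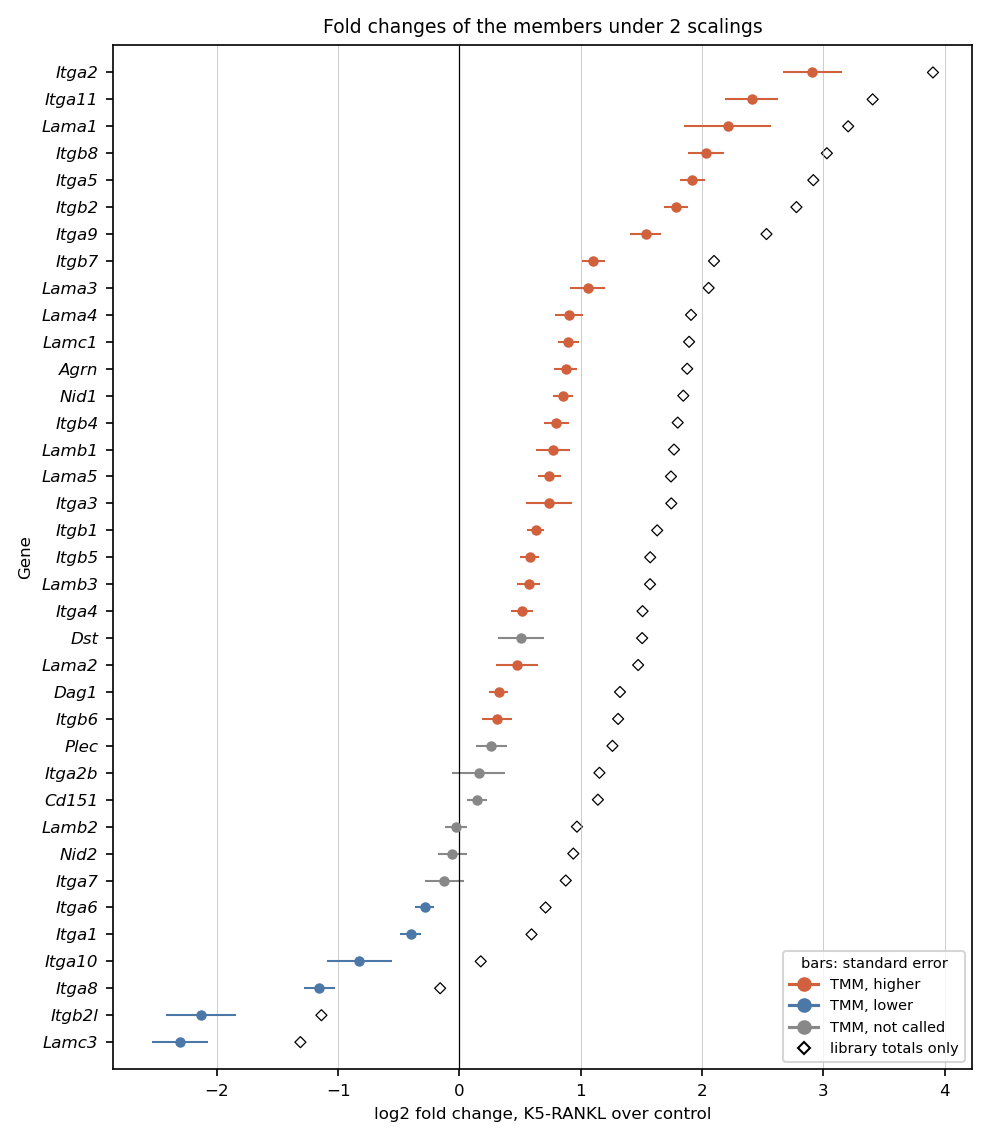
log2 fold change, K5-RANKL over control (x axis), of the member genes with standard errors on the TMM scale (filled points, coloured by call) and by library totals only (open diamonds). Itga2 stands highest at 2.91 and Lamc3 lowest at −2.30, and the diamonds lie about 1 log2 unit to the right, as does the median of all genes, 1.01. Itga2 and Lama1 passed the low-count filter only through the K5-RANKL libraries.

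Receptors of fibronectin, tenascin and related ligands were among the members that rose at least 2-fold. Itga5, the alpha chain of the fibronectin receptor, was at 7.28, 8.05 and 8.92 CPM in controls and 31.6, 30.2 and 30.3 CPM in K5-RANKL libraries (3.78-fold, log2 1.92, SE 0.10, edgeR adjusted p = 3.33e-11). Itga9, whose integrin binds tenascin C, was at 5.07, 7.56 and 5.87 against 18.1, 16.9 and 18.4 CPM (2.90-fold, SE 0.13 on the log2 scale, edgeR adjusted p = 1.41e-08). Itga8, a receptor chain for nephronectin known from mesenchyme, was at 11.3, 12.5 and 10.9 against 4.94, 5.30 and 5.31 CPM and fell 2.23-fold (log2 −1.16, SE 0.13, edgeR adjusted p = 4.14e-07). By library totals Itga8 stood at −0.16 and was not called. Itga2b, the platelet alphaIIb chain, stood at 0.16 (SE 0.22, edgeR adjusted p = 0.542) with overlapping groups. Platelet markers summed to 1.47 to 3.50 CPM in controls and 5.81 to 6.79 CPM in K5-RANKL libraries, mostly Pf4, the only 1 of 7 with enough counts to test. Smooth muscle and pericyte markers summed to 351 to 366 and 344 to 362 CPM, with 3 of 7 higher and 2 lower.

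Promoter windows of RefSeq (GRCm38.p6, 250 bases before to 50 after an annotated start) were given for 26 of the 38 members and were searched for the motif of AP-1, a factor that RANK is known to activate. The AP-1 motif TGANTCA, which reads alike on both strands, was found for 2 of the 26 (7.69%) and for 8.97% of all 27025 genes with a window. The matches lie at starts inside Itga9 and Itga3, both higher in K5-RANKL glands, and these windows are shown as the only ones among the members. Each is printed 5′ to 3′ on the gene's strand with the motif in capitals, which begins at base 39 of the transcript in Itga9 and base 13 in Itga3. A match is a description of the sequence only.
Itga9, chr9:118711442-118711741, plus strand: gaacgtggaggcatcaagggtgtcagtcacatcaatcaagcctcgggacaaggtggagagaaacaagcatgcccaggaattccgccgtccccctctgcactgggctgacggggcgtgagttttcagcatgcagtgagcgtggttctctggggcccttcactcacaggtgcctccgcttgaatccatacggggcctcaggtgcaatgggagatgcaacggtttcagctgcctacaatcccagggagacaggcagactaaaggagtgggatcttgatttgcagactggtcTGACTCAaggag
Itga3, chr11:95069149-95069448, minus strand: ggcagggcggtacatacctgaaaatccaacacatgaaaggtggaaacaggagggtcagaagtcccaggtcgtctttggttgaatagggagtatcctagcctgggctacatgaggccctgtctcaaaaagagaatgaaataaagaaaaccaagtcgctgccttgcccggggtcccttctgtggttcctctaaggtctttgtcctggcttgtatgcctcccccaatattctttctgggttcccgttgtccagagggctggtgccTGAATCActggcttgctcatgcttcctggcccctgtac

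Itgb5, Itgb6 and Itgb8, beta chains that pair with alphaV, rose, though unequally. Itgb3 is not a member and is not part of their shares. Itgb8, whose integrin releases active TGF-beta from its latent form, was at 4.06, 6.97 and 5.01 CPM in controls and 22.8, 19.6 and 22.7 CPM in K5-RANKL libraries (4.09-fold, log2 2.03, SE 0.15, edgeR adjusted p = 2.94e-09). Itgb5, a vitronectin receptor chain, was at 75.7, 78.4 and 86 against 117, 128 and 114 CPM (1.49-fold, SE 0.08 on the log2 scale, edgeR adjusted p = 3.84e-06). Itgb6, an epithelial chain that also activates latent TGF-beta, was at 8.20, 9.13 and 8.14 against 10.003, 10.2 and 11.3 CPM (1.24-fold, edgeR adjusted p = 0.031). The call of Itgb6 was lost with DESeq2 (adjusted p = 0.105) and without control 1, control 3 or K5-RANKL 3 (edgeR adjusted p = 0.0811, 0.1 and 0.137), and its adjusted p ran from 4.72e-09 to 0.137 over the alternatives. Itgb5 took most of the reads per kilobase of these 3 chains in every library, 91.0% ± 1.14 in controls and 88.4% ± 1.26 in K5-RANKL glands. The share of Itgb8 went from 2.37% ± 0.649 to 6.29% ± 0.806, without overlap, and that of Itgb6 from 6.61% ± 0.609 to 5.32% ± 0.545. The groups of Itgb5 and Itgb6 all but touched. Their lowest control and highest K5-RANKL shares were 89.7511 and 89.7509% for Itgb5 and 5.943 and 5.932% for Itgb6. Itgav, the alphaV chain itself, which is no member by its symbol, was at 39.0, 41.2 and 39.2 CPM in controls and 178, 195 and 223 CPM in K5-RANKL libraries, a log2 rise of 2.32 (SE 0.09, edgeR adjusted p = 6.26e-13).

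Of the 4 leukocyte integrin genes 3 rose and 1 fell, where 34.2% of all genes rose and 32.1% fell. Itgb2, the beta chain of all the leukocyte integrins with alphaL, alphaM, alphaX and alphaD, was at 18.9, 25.1 and 23.8 CPM in controls and 80.6, 79.8 and 73.4 CPM in K5-RANKL libraries (3.45-fold, log2 1.79, SE 0.10, edgeR adjusted p = 3.95e-11). Itgb7, the gut-homing chain, was at 18, 20.5 and 19.4 against 44.3, 42.8 and 37.3 CPM (2.15-fold, edgeR adjusted p = 1.39e-08). Itga4, which pairs with beta1 or beta7 to bind VCAM-1 or MAdCAM-1, was at 17.4, 21.9 and 20.1 against 28.1, 28.6 and 28.1 CPM (1.43-fold, edgeR adjusted p = 9.78e-05). The alpha chains named by a letter all rose, 6 of 6, with a median of 2.44. Of these, Itgad, at 0.0922, 0.295 and 0.0782 CPM in controls, passed the low-count filter only through the K5-RANKL libraries. Itgax, known from dendritic cells and macrophages, rose by 2.55 (SE 0.11), from 9.62 ± 1.64 to 56.3 ± 2.5 CPM. Itgb2l, a beta2-like chain of maturing neutrophils on chromosome 16 from 96422288 to 96443664, had 23, 24 and 35 counts in controls and 10, 13 and 12 in K5-RANKL libraries, and fell 4.37-fold (log2 −2.13, SE 0.29, edgeR adjusted p = 5.01e-06), also by library totals (−1.14). The gene Igsf5 overlaps it, and with no stated strand setting their reads are uncertain.

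Leukocyte markers rose beside these members. All 7 general leukocyte markers were higher, with a sum of 599 to 638 CPM in controls and 1024 to 1099 CPM in K5-RANKL libraries, and all 5 macrophage markers in the table, with 145 to 171 against 850 to 875 CPM. T cell markers (5 of 5 higher) summed to 50.9 to 54.2 CPM in controls and 104 to 111 CPM in K5-RANKL libraries. Neutrophil markers (3 of 3 tested higher) summed to 1.38 to 3.05 and 5.31 to 6.93 CPM, while Itgb2l was lower. Of these, S100a8 and S100a9, at 0.184 to 0.626 and 0 to 0.548 CPM in controls, passed the low-count filter only through the K5-RANKL libraries. Mpo and Elane, too low to test, averaged 0.269 and 0.0829 CPM in controls and 0.214 and 0.0334 CPM in K5-RANKL libraries. B cell markers gave 102 to 114 and 115 to 129 CPM, 1 of 5 called higher, and none of these markers was at 0 in all libraries. Itgb2 was 3.61% ± 0.404 of the general leukocyte sum in controls and 7.29% ± 0.101 in K5-RANKL libraries, but 14.1% ± 0.883 and 9.07% ± 0.399 of the macrophage sum. Itga4 went from 3.16% ± 0.26 to 2.65% ± 0.0937 of the general leukocyte sum, and Itgb7 from 3.09% ± 0.113 to 3.87% ± 0.207 (SD, n = 3 each; no overlap, exact permutation p = 0.1 each). The part of these cells in the integrin results was not tested.

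The ligands of these receptors outside the basement membrane had the highest median of the 5 pathway lists. Of 15 genes 12 rose, with a median log2 change of 2.74 over the list, and 3 did not pass. Over all genes 34.2% rose and 32.1% fell. Spp1, encoding osteopontin, rose by 6.40 (SE 0.12), from 2.17 ± 0.359 to 184 ± 15.1 CPM, and Thbs1, encoding thrombospondin 1, by 4.01 (SE 0.09), from 19.5 ± 0.677 to 314 ± 16.8 CPM. Among other basement membrane components, 13 of 23 tested rose and 3 fell, around a median of 0.41. Sparc, encoding a collagen-binding matrix protein, rose by 1.81 (SE 0.08), and Loxl2, a collagen crosslinking enzyme gene, by 1.86 (SE 0.11). Col7a1, the anchoring fibril collagen, fell by 1.15 (SE 0.09), but stood at −0.15 and was not called by library totals. Col4a3, a collagen IV chain, fell by 1.88 (SE 0.30), and by 0.89 by library totals. Nephronectin (Npnt, chosen after its values were seen) rose by 3.11 (SE 0.23) from 1.35 ± 0.322 to 11.5 ± 2.67 CPM, while its receptor chain Itga8 fell on the TMM scale only. By library totals all 15 ligands and 20 of the 23 basement membrane genes (87%) were higher, where 83.5% of all genes tested were.

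The cytoplasmic proteins that couple integrins to actin were mixed, with 12 of 26 higher, 6 lower and 8 in neither class. Over all genes 34.2% were higher and 32.1% lower. The median log2 change of the 26 was 0.23. The actin crosslinker gene Actn1 rose by 1.46 (SE 0.07), from 64.8 ± 1.93 to 178 ± 8.19 CPM, and Vcl, encoding vinculin, by 1.13 (SE 0.08). Tns4, a tensin gene, went from 50.6 ± 8.02 down to 19.0 ± 0.475 CPM (log2 −1.42, SE 0.10), and was lower by library totals too (−0.42). Kank1 fell by 0.61 on the log2 scale (SE 0.08) but was 0.39 higher by library totals. By library totals 25 of the 26 were higher and 1 lower, where 83.5% of all genes tested were higher.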

How the data were processed

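The authors deposited raw read counts per gene. Per the submitters' processing notes, STAR and mm10 were used; the counting tool, annotation and strand setting are not stated in these sources. All 6 count columns entered, grouped by the genotype label, with replicate numbers in accession order. Within groups, libraries differed by a chi-square of 6.26 to 38.3 per gene, above sampling noise.

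After edgeR's filterByExpr (minimum count 10) and TMM scaling, the whole table of 14044 genes went through the robust quasi-likelihood F-test of edgeR, two-sided, on both groups with no covariate, adjusted by Benjamini-Hochberg and called under 0.05. Standard errors are the log2 fold change over the square root of F. The test was tried on simulated data first, where it called 36.4% of 1.5-fold and 83.6% of 2-fold changes. Those simulated libraries shared a common composition with few changed genes, so they do not try the composition shift seen here. Levels per kilobase use the longest coding transcript of GENCODE M21 (GRCm38), and positions are RefSeq's, by Entrez identifier. Shares and ratios within libraries were compared by exact permutation. Software versions: R 4.3.3; edgeR 4.0.16, limma 3.58.1, DESeq2 1.42.0.

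The members and lists were chosen with earlier results of these data known. Members are named, except 1 that is not reported here, and of each pathway list up to 2 called genes with the smallest p in each direction. Ratios to marker sums, shares beyond those of Lama3, Lamb3, Itgb4 and Itgb6, the motif and other named genes were chosen after values were seen. The spans of 7 members (Nid2, Itgb4, Dst, Itga7, Itga1, Itga4 and Itgb2l) overlap another protein-coding gene, so their reads are uncertain. Floors cover counting error only.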

Additional observations from a re-analysis of the deposited data

How the results depend on the processing

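Each member was refitted with RLE factors, library totals, TMM without the 20 most abundant genes, no low-count filter, at least 50 counts in 3 libraries, DESeq2, limma voom and each library left out. Of 491 such values 458 kept direction and side of the threshold, and 24 of the 38 members did so in every one. By library totals 11733 genes were higher and 698 lower, and 2 members were lower; the cause of the shift was not tested. Signs turned by library totals for Lamb2 (0.97), Nid2 (0.94), Itga6 (0.71), Itga7 (0.88), Itga1 (0.59) and Itga10 (0.18). With 1 library left out at a time, Lamb2 ranged from −0.11 (without control 1) to 0.063 (without control 3), Nid2 from −0.15 to 0.0051 and Itga2b from −0.069 (without control 1) to 0.29 (without control 2), none of them called. Without division by length, changes in shares were, in percentage points, −2.13 in place of −1.29 for Itgb6, −6.51 in place of −2.62 for Itgb5, 8.64 in place of 3.91 for Itgb8, −3.71 in place of −8.14 for Itga10 and 16.8 in place of 25.5 for Itga11. With at least 50 counts in 3 libraries 35 members were tested, without Lama1, Itga10 and Itgb2l. No paired analysis was possible because the labels give no replicate number that groups share. Depth limits these, and Itga2, which had under 10 counts in every control.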
